A study of Homo sapiens with 18 samples.

Results

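The glutathione and redox genes controlled by NRF2 described here were GCLC, GCLM, SLC7A11, GPX2, TXNRD1, SRXN1, NQO1, HMOX1 and ABCC2. They were chosen by gene symbol, through the probe set whose only listed symbol was that of the gene and the brightest such probe set where a symbol had several, and all 9 were found among 18377 genes measured this way. Each had 1 such probe set. The 9 genes and the gene lists read further on were picked with earlier results of these data known. Shares of all genes set beside their counts are therefore a description and not a test. Cells were A549, an established human lung adenocarcinoma line of epithelial origin, in which the deposited values covered 18 Affymetrix whole-transcript arrays, 3 biological replicates in each of 6 groups. Cells of the siControl groups received a control siRNA, and cells of the siPKCiz groups received siRNA against PKCiota and PKCzeta, the 2 atypical protein kinase C isoforms. In each arm 1 group had no ligand. The other groups of an arm were starved of serum and met 250 pM TGFβ for 1 h before it was washed off, and RNA was taken after a further 7 h (the 8 h group) or 23 h (the 24 h group) in 0.2% serum. The labels give the untreated groups no time, so ligand and time in low serum cannot be told apart in a comparison with them. All groups came from the same line. Silencing was aimed at both isoforms together, so their effects cannot be told apart. It was read as RNA only and was partial, with PRKCZ lowered least in replicate 1 (values below).

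NRF2, encoded by NFE2L2, is a transcription factor that switches on antioxidant and detoxifying genes. KEAP1 holds NRF2 in the cytoplasm and hands it to the CUL3 ubiquitin ligase for destruction, and oxidants or electrophiles that modify KEAP1 let NRF2 reach the nucleus. There it pairs with a small MAF protein on antioxidant response elements, which BACH1 can also occupy as a repressor. A549 cells carry a KEAP1 mutation, and NRF2 is known to be active in them without added stress.

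The antioxidant response element has the core TGACNNNGC, where N is any base. It was searched on both strands in the 250 bases before the annotated gene start (RefSeq, GRCh38.p14). The promoter table used here held 7 of the 9 genes (all except HMOX1 and SLC7A11), and 3 of the 7 contained the core (42.9%), against 3013 of 27305 promoters in all (11%). The windows around the 3 matches are shown because they are the places where the letters of the element lie in front of genes that moved in these arrays; each is 60 bases, written 5′ to 3′ along the gene's strand, with the core in capitals. In GCLM (chr1:93909431-93909490, minus strand) and GPX2 (chr14:64942834-64942893, minus strand) the core reads on the strand opposite to the gene, so its reverse complement is what the line shows, and in TXNRD1 (chr12:104215654-104215713, plus strand) it reads along the gene. The first capital lies 34 bases before the start in GCLM, 122 in GPX2 and 99 in TXNRD1.
GCLM: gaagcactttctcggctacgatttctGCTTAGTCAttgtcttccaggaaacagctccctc
GPX2: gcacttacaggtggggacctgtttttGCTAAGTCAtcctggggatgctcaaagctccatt
TXNRD1: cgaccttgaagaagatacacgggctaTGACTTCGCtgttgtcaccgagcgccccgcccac
The same search of GCLC, SRXN1, NQO1 and ABCC2 found no core in this window, which says only that these letters are not there. A match is a description of the sequence and not a measured binding site.

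The silencing was read first. Averaged over conditions, siPKCiz reduced the PKCiota gene PRKCI 4.73-fold (log2 difference -2.24 ± 0.052, SE; limma adjusted p = 1.98e-15) and the PKCzeta gene PRKCZ 2.10-fold (-1.07 ± 0.14; 3.43e-05). PRKCZ intensity in siPKCiz was 242, 254 and 206 in the replicate 1 arrays and 142 to 189 in replicates 2 and 3, against 265 to 309 and 398 to 490 in siControl. Replicates 2 and 3 were the closest pair of arrays in 6 of 6 groups (correlation across genes between replicates 0.992 to 0.998), so replicate 1 stood apart and values without it are given below. As a check of the cell type label only, mean log2 intensity was 8.74 to 12.92 for the 5 epithelial markers (KRT8 highest, CDH1 lowest), 5.65 to 6.84 for the 3 leukocyte markers and 6.18 to 6.35 for the 3 endothelial ones, with medians over genes from 7.95 to 8.11 per array. Of the 4 fibroblast markers DCN (5.99) and PDGFRB (6.63) were below these medians, LUM (7.91) just below and THY1 (8.30) above. In bulk RNA, fewer cells of a type and less RNA per cell cannot be told apart.

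All values of single arrays below are log2 of the deposited intensity, on which 1 unit is a 2-fold difference, in the order of replicates 1, 2 and 3. The levels of the 9 genes are not compared with each other, since each has its own probe set. Where arrays of a group lie apart from those of another, this is a description without a test. The share of all genes so separated was not counted. A change is a difference of group means with its standard error from limma (n = 3 arrays per group), and a gene is called when its Benjamini-Hochberg adjusted p over 18377 genes is under 0.05. These p-values may be too small, for a reason given with the processing.

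**Figure D1:**
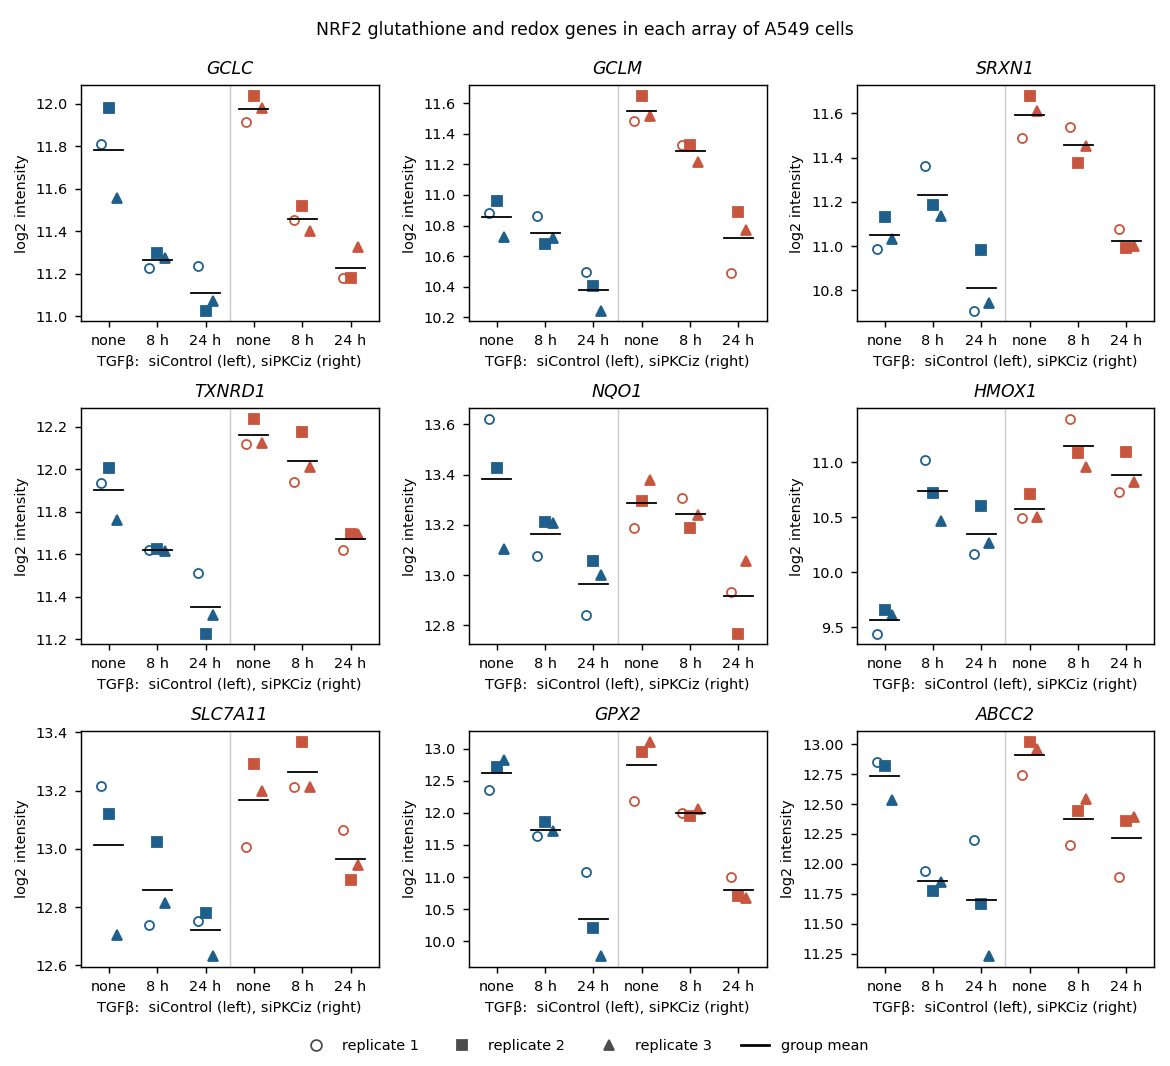
Log2 intensity of each of the 9 genes (vertical axis, a separate scale for each gene) in each of 18 arrays, for siControl (blue, left) and siPKCiz (red, right) without ligand and at 8 h and 24 h of TGFβ; symbols mark the replicate numbers (replicate 1 open) and bars the group means. GPX2 stepped down from without ligand to 8 h to 24 h in both arms, whereas HMOX1 was lowest in untreated siControl cells.

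The first comparison asked how the genes of glutathione synthesis responded to TGFβ. GCLC (chr6:53497341-53545101, GRCh38.p14), the catalytic subunit of glutamate-cysteine ligase, which makes the first and rate-limiting step, read 11.81, 11.98 and 11.56 without ligand, 11.22, 11.30 and 11.28 at 8 h, and 11.24, 11.03 and 11.07 at 24 h in siControl. In siPKCiz the GCLC values were 11.91, 12.04 and 11.98 without ligand, 11.45, 11.52 and 11.40 at 8 h, and 11.18, 11.18 and 11.32 at 24 h. All TGFβ arrays of an arm lay below all untreated arrays of that arm. GCLC fell by 0.52 ± 0.093 at 8 h (limma adjusted p = 0.000973) and fell by 0.67 ± 0.093 at 24 h (1.59-fold lower; adjusted p = 6.59e-05) in siControl. In siPKCiz it fell by 0.52 ± 0.093 (0.00162) and fell by 0.75 ± 0.093 (1.68-fold lower; adjusted p = 2.81e-05). Without replicate 2 the 8 h change in siControl was -0.44 (adjusted p = 0.0631). GCLC was thus lower by 8 h with no call between 8 h and 24 h (-0.15 ± 0.093 in siControl and -0.23 ± 0.093 in siPKCiz). From highest to lowest, the groups ran siPKCiz untreated, siControl untreated, siPKCiz 8 h, siControl 8 h, siPKCiz 24 h and siControl 24 h; the ranges of neighbouring groups were separate only between untreated siControl and siPKCiz 8 h and between the 8 h groups.

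GCLM (chr1:93885199-93909430), the regulatory subunit of the same ligase, read 10.88, 10.96 and 10.73 without ligand, 10.86, 10.68 and 10.72 at 8 h, and 10.50, 10.40 and 10.24 at 24 h in siControl arrays. Its siPKCiz values were 11.48, 11.65 and 11.52 without ligand, 11.33, 11.33 and 11.21 at 8 h, and 10.49, 10.89 and 10.77 at 24 h. In siControl the 8 h values overlapped the untreated ones and the 24 h values lay below both, and in siPKCiz each later group lay below the earlier one without overlap. The change in siControl was -0.10 ± 0.10 at 8 h, not called, and GCLM fell by 0.48 ± 0.10 at 24 h (1.39-fold lower; adjusted p = 0.00345). In siPKCiz the 8 h change was -0.26 ± 0.10 (adjusted p = 0.161), and GCLM fell by 0.83 ± 0.10 at 24 h (1.78-fold lower; adjusted p = 2.39e-05). The 24 h call in siControl was lost without replicate 2 (-0.44, adjusted p = 0.0958) or replicate 3 (-0.47, 0.0786). Groups ordered from siPKCiz untreated and siPKCiz 8 h, both above every siControl array, to siControl untreated, siControl 8 h, siPKCiz 24 h and siControl 24 h; the last 4 overlapped from neighbour to neighbour.

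SLC7A11 (chr4:138164097-138242349), the cystine importer xCT that feeds cysteine into glutathione, gave 13.22, 13.12 and 12.70 without ligand, 12.74, 13.02 and 12.82 at 8 h, and 12.75, 12.78 and 12.63 at 24 h in siControl. For siPKCiz the SLC7A11 values were 13.01, 13.29 and 13.20 without ligand, 13.21, 13.37 and 13.21 at 8 h, and 13.06, 12.89 and 12.94 at 24 h. Untreated siControl replicate 3 was low among the untreated arrays, and every TGFβ group overlapped the untreated group of its arm. SLC7A11 was not called with TGFβ in either arm: -0.15 ± 0.12 and -0.29 ± 0.12 in siControl at 8 h and 24 h (adjusted p = 0.495 and 0.12), and 0.10 ± 0.12 and -0.20 ± 0.12 in siPKCiz (0.756 and 0.319). The 95% intervals at 24 h ran from -0.54 to -0.05 in siControl and from -0.44 to 0.04 in siPKCiz. Its order of groups was siPKCiz 8 h, siPKCiz untreated, siControl untreated, siPKCiz 24 h, siControl 8 h and siControl 24 h, and no neighbours in it were separate.

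GPX2 (chr14:64939158-64942745), an epithelial glutathione peroxidase that spends glutathione on hydroperoxides, had the largest change with TGFβ among the 9 genes. Its siControl arrays read 12.35, 12.71 and 12.82 without ligand, 11.65, 11.86 and 11.71 at 8 h, and 11.07, 10.20 and 9.76 at 24 h. The siPKCiz arrays read 12.19, 12.94 and 13.11 without ligand, 11.998, 11.95 and 12.07 at 8 h, and 11.002, 10.70 and 10.67 at 24 h. In both arms all 8 h arrays lay below all untreated arrays and all 24 h arrays below all 8 h arrays. GPX2 fell by 0.89 ± 0.25 at 8 h (adjusted p = 0.0246) and fell by 2.28 ± 0.25 at 24 h (4.86-fold lower; adjusted p = 6.01e-06) in siControl. In siPKCiz the 8 h change of -0.74 ± 0.25 was not called (adjusted p = 0.0903), and GPX2 fell by 1.95 ± 0.25 at 24 h (3.87-fold lower; adjusted p = 3.62e-05). The siControl 24 h replicate 1 array, at 11.07, was the least lowered, and without replicate 1 the 24 h changes were -2.78 and -2.34 in the 2 arms. The 8 h call in siControl was lost without the array of siControl 8 h replicate 1 or 3 or siControl untreated replicate 2 or 3 (adjusted p = 0.0687 to 0.0955). It was lost as well without replicate 2 (-0.91, adjusted p = 0.247) or replicate 3 (-0.78, 0.153), and without replicate 1 the 8 h change in siPKCiz was called (-1.02, 7.88e-05). GPX2 was highest in the 2 untreated groups, which overlapped, then in siPKCiz 8 h, siControl 8 h, siPKCiz 24 h and siControl 24 h, and only the last 2 of these overlapped.

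The thioredoxin genes followed. TXNRD1 (chr12:104215779-104350307), thioredoxin reductase, which keeps thioredoxin reduced with NADPH, read 11.93, 12.01 and 11.76 without ligand, 11.62, 11.63 and 11.61 at 8 h, and 11.51, 11.23 and 11.31 at 24 h in siControl. Values of TXNRD1 in siPKCiz were 12.12, 12.24 and 12.13 without ligand, 11.94, 12.18 and 12.01 at 8 h, and 11.62, 11.69 and 11.70 at 24 h. In siControl the groups were separate at each step, and in siPKCiz the 8 h arrays overlapped the untreated ones while the 24 h arrays lay below both. TXNRD1 fell by 0.55 ± 0.087 at 24 h in siControl (1.46-fold lower; adjusted p = 0.000256) and fell by 0.49 ± 0.087 in siPKCiz (1.41-fold lower; 9e-04). At 8 h it fell by 0.28 ± 0.087 in siControl (adjusted p = 0.0421), a call lost without replicate 1, 2 or 3 (adjusted p = 0.0822, 0.334 and 0.143), with arrays centred on their medians (0.104), with the replicate number as a block (0.0635) and with only the arrays compared (0.0998). It was also lost without the array of siControl 8 h replicate 1, 2 or 3 or siControl untreated replicate 1 or 2 (adjusted p = 0.0863 to 0.175). Its 8 h change in siPKCiz was -0.12 ± 0.087 (adjusted p = 0.542). Its order was siPKCiz untreated, siPKCiz 8 h, siControl untreated, siPKCiz 24 h, siControl 8 h and siControl 24 h, with separate ranges between siControl untreated and siPKCiz 24 h and between the siControl TGFβ groups.

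SRXN1 (chr20:646615-653200), sulfiredoxin, which repairs overoxidised peroxiredoxins, gave 10.99, 11.13 and 11.03 without ligand, 11.36, 11.19 and 11.14 at 8 h, and 10.71, 10.98 and 10.75 at 24 h in siControl. Its siPKCiz arrays gave 11.49, 11.68 and 11.61 without ligand, 11.54, 11.38 and 11.45 at 8 h, and 11.08, 10.99 and 11.002 at 24 h. In siControl the 8 h arrays lay above and the 24 h arrays below all untreated arrays, but by margins far under the standard error. The nearest arrays were at 11.135 (8 h) against 11.130 (untreated) and at 10.984 (24 h) against 10.988 (untreated). In siPKCiz only the 24 h arrays were separate from the untreated ones. Neither siControl change was called (0.18 ± 0.087, adjusted p = 0.232, at 8 h and -0.24 ± 0.087, 0.0907, at 24 h). In siPKCiz SRXN1 was at -0.14 ± 0.087 at 8 h, not called, and fell by 0.57 ± 0.087 at 24 h (1.48-fold lower; adjusted p = 0.00024). SRXN1 was highest in siPKCiz untreated and siPKCiz 8 h, which overlapped, then in siControl 8 h, siControl untreated, siPKCiz 24 h and siControl 24 h; of these later steps only siControl untreated and siPKCiz 24 h overlapped.

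NQO1 (chr16:69709401-69726560), a quinone reductase and a classical NRF2 target, read 13.62, 13.42 and 13.10 without ligand, 13.08, 13.21 and 13.21 at 8 h, and 12.84, 13.06 and 12.999 at 24 h in siControl. In siPKCiz its values were 13.19, 13.30 and 13.38 without ligand, 13.31, 13.19 and 13.24 at 8 h, and 12.93, 12.77 and 13.06 at 24 h. In both arms the 24 h arrays lay below all untreated arrays of the arm, and the 8 h arrays overlapped them. NQO1 fell by 0.42 ± 0.11 at 24 h in siControl (1.33-fold lower; adjusted p = 0.0159) and fell by 0.37 ± 0.11 in siPKCiz (1.29-fold lower; 0.0372). Both calls changed with the settings. In siControl the change was -0.24 without replicate 1 (adjusted p = 0.19) and -0.44 without replicate 2 (0.16), and the call was lost with only the arrays compared (0.0765) or without the array of siControl 24 h replicate 1 or siControl untreated replicate 1 or 2 (adjusted p = 0.0584 to 0.103). The siPKCiz call was lost without replicate 2 (0.374) or 3 (0.102), with arrays centred on their medians (0.144) and with the replicate number as a block (0.066). It was lost as well without the array of siPKCiz 24 h replicate 1 or 2 or siPKCiz untreated replicate 2 or 3 (adjusted p = 0.0903 to 0.15). At 8 h NQO1 was at -0.22 ± 0.11 and -0.04 ± 0.11, not called. The order ran siControl untreated, siPKCiz untreated, siPKCiz 8 h, siControl 8 h, siControl 24 h and siPKCiz 24 h, and only the siControl 8 h and 24 h groups in it were separate.

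HMOX1 (chr22:35381096-35394207), heme oxygenase, which breaks heme into biliverdin, iron and carbon monoxide, moved the other way. The siControl arrays were at 9.44, 9.66 and 9.61 without ligand, 11.02, 10.72 and 10.47 at 8 h, and 10.16, 10.60 and 10.26 at 24 h. In siPKCiz the HMOX1 arrays were at 10.50, 10.71 and 10.51 without ligand, 11.40, 11.09 and 10.96 at 8 h, and 10.73, 11.09 and 10.82 at 24 h. Untreated siControl cells were lowest, below every other array, and in both arms all TGFβ arrays lay above all untreated ones. HMOX1 rose by 1.17 ± 0.14 at 8 h (2.25-fold; adjusted p = 3.68e-05) and 0.78 ± 0.14 at 24 h (1.71-fold; 0.00119) in siControl. In siPKCiz it rose by 0.58 ± 0.14 at 8 h (1.49-fold; adjusted p = 0.02) and was at 0.31 ± 0.14 at 24 h, not called (0.204). Without replicate 2 the 24 h change in siControl was 0.69 (adjusted p = 0.0528). The siPKCiz 8 h call was lost without replicate 1, 2 or 3 (0.41, 0.68 and 0.64; adjusted p = 0.0747, 0.0819 and 0.117) and without the array of siPKCiz 8 h replicate 1 or siPKCiz untreated replicate 1 or 3 (adjusted p = 0.0797 to 0.136). Groups ordered siPKCiz 8 h, siPKCiz 24 h, siControl 8 h, siPKCiz untreated, siControl 24 h and siControl untreated, each overlapping the next except the last.

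ABCC2 (chr10:99782640-99852594), the efflux pump MRP2, which exports glutathione conjugates, read 12.85, 12.82 and 12.53 without ligand, 11.94, 11.77 and 11.85 at 8 h, and 12.20, 11.67 and 11.23 at 24 h in siControl. The corresponding siPKCiz values were 12.74, 13.02 and 12.96 without ligand, 12.16, 12.44 and 12.54 at 8 h, and 11.89, 12.36 and 12.40 at 24 h. Every TGFβ array lay below every untreated array of its arm, and the siControl 24 h arrays were the most spread, with replicate 1 highest. ABCC2 fell by 0.88 ± 0.18 at 8 h (adjusted p = 0.00338) and fell by 1.04 ± 0.18 at 24 h (2.05-fold lower; 0.000726) in siControl. In siPKCiz the 8 h change of -0.53 ± 0.18 was not called (adjusted p = 0.105), and ABCC2 fell by 0.69 ± 0.18 at 24 h (1.62-fold lower; 0.0189). Without replicate 2 neither siControl change was called (adjusted p = 0.15 and 0.0694), and the 24 h call in siPKCiz was lost without replicate 2 (0.193) or 3 (0.0501) and without the array of siPKCiz 24 h replicate 1 or siPKCiz untreated replicate 2 or 3 (adjusted p = 0.0652 to 0.125). Its order was siPKCiz untreated, siControl untreated, siPKCiz 8 h, siPKCiz 24 h, siControl 8 h and siControl 24 h, with overlap at each step.

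As a group, 4 of the 9 genes fell (GCLC, TXNRD1, GPX2 and ABCC2) and 1 rose (HMOX1) at 8 h in siControl. Of all 18377 genes 6.18% fell and 5.17% rose there. At 24 h in siControl 6 fell and 1 rose, GCLM and NQO1 joining the falls, against 6.46% and 5.85% of all genes, and the median change of the 9 was -0.48 against -0.01 over all genes. In siPKCiz GCLC fell and HMOX1 rose at 8 h, against 3.35% and 3.13% of all genes. At 24 h in siPKCiz 7 fell and 0 rose, against 6.09% and 4.65%, with a median of -0.57 against -0.01; HMOX1 and SLC7A11 were not called. The comparisons at 8 h and 24 h of an arm share its untreated arrays. Shares of all genes take in dim genes, while the 9 genes were brighter in mean log2 intensity than 84.1% to 99.6% of all genes. Shares among genes of like brightness were not counted. Counts of called members without replicates 1, 2 and 3 were 4, 1 and 3 at 8 h and 6, 3 and 6 at 24 h in siControl, and 3, 1 and 1 at 8 h and 7, 5 and 5 at 24 h in siPKCiz. In the same fits the share of all genes called lower was 10.2%, 1.58% and 1.99% at 8 h and 8.99%, 2.07% and 1.8% at 24 h in siControl, and 3.17%, 0.833% and 0.887% at 8 h and 5.48%, 2.32% and 2.02% at 24 h in siPKCiz. The share called higher was 5.71%, 2.12% and 2.37%, then 6.64%, 2.07% and 2.31% in siControl, and 2.94%, 1.11% and 0.871%, then 3.97%, 2.11% and 2.22% in siPKCiz, so calls were fewer over all genes without replicate 2 or 3. Centring arrays on their medians moved the share of rises among all called genes from 48.3% to 62.4% at 8 h and from 43.3% to 58.5% at 24 h in siPKCiz.

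**Figure D2:**
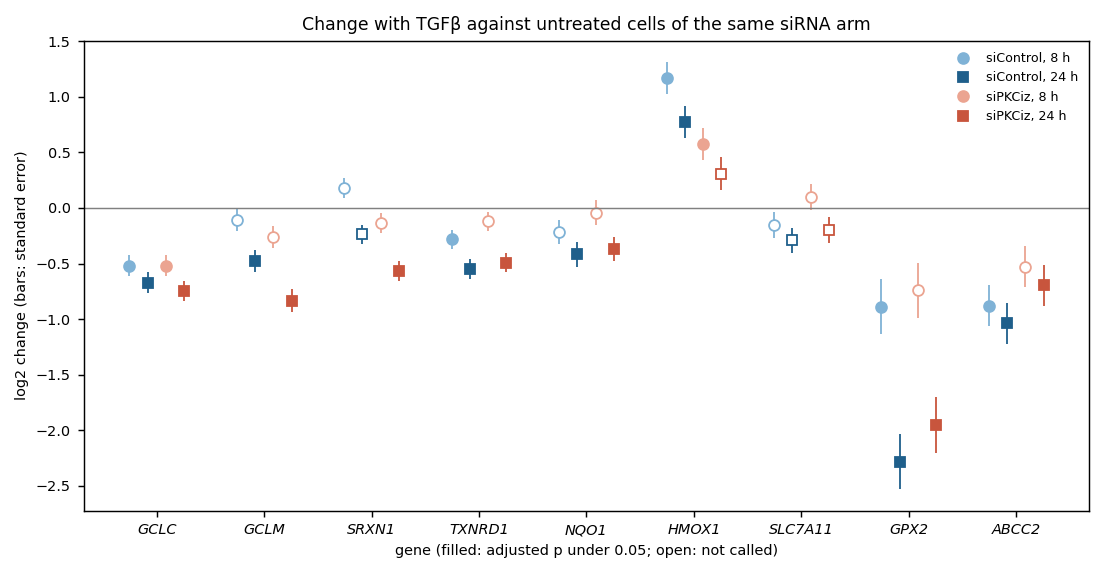
Log2 change with TGFβ against untreated cells of the same arm for each gene (vertical axis; bars are limma standard errors, 3 arrays per group), at 8 h (circles) and 24 h (squares) in siControl (blue) and siPKCiz (red); filled symbols passed adjusted p under 0.05. HMOX1 lies above 0 and GPX2 lowest in both arms, at -2.28 and -1.95 at 24 h.

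The times were also compared directly. In siControl GPX2 was lower at 24 h than at 8 h (-1.39 ± 0.25; 2.63-fold; adjusted p = 0.00528) and SRXN1 was too (-0.42 ± 0.087; 0.0159), so 2 of the 9 genes were lower and 0 higher, against 1.1% and 1.31% of all genes. In siPKCiz GPX2 (-1.21 ± 0.25; adjusted p = 0.0268), GCLM (-0.57 ± 0.10; 0.0111) and SRXN1 (-0.43 ± 0.087; 0.0254) were lower, 3 of 9 with 0 higher, against 0.419% and 0.386% of all genes. HMOX1 was at -0.39 ± 0.14 in siControl and -0.27 ± 0.14 in siPKCiz, not called. Without replicate 2 or without replicate 3, 0 of the 9 genes passed in either arm (limma; GPX2 adjusted p = 0.292 and 0.168 in siControl). Few genes passed at all in those fits, 0.0272% and 0.0218% lower and 0.0326% and 0.049% higher in siControl and 0% and 0.0326% lower and 0.00544% and 0.0272% higher in siPKCiz, so these counts say nothing particular about the 9. Without replicate 1 the SRXN1 call in siControl was lost (-0.30, adjusted p = 0.104), and GPX2 (-1.80) stayed called. The SRXN1 call in siControl was lost without the array of siControl 24 h replicate 1 or 3 or siControl 8 h replicate 1 (adjusted p = 0.0651 to 0.0736). In siPKCiz the GCLM call was lost without the array of siPKCiz 24 h replicate 1 or siPKCiz 8 h replicate 2 (adjusted p = 0.0761 to 0.088), and the GPX2 and SRXN1 calls without any 1 of the 6 arrays compared (adjusted p = 0.0631 to 0.109 and 0.0653 to 0.088). The replicate block took the siPKCiz calls of GPX2 (0.0575) and SRXN1 (0.0525). With only the arrays compared, GCLM (0.0961) and SRXN1 (0.0852) in siPKCiz and SRXN1 in siControl (0.109) were not called.

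The second question was what silencing PKCiota and PKCzeta did to the same genes. Averaged over the 3 conditions, 7 of the 9 genes were higher in siPKCiz and 0 lower, against 11.8% and 8.17% of all genes. Of the 5 epithelial markers 3 were higher as well and 0 lower (median 0.25; values further on), and their part in this was not tested. HMOX1 rose by 0.65 ± 0.084 (1.57-fold; adjusted p = 2.93e-05), GCLM by 0.52 ± 0.058 (1.44-fold; 7.5e-06), ABCC2 by 0.41 ± 0.11 (0.0109) and TXNRD1 by 0.33 ± 0.05 (0.000131). SRXN1 rose by 0.33 ± 0.05 (adjusted p = 0.000166), SLC7A11 by 0.27 ± 0.067 (0.00808) and GCLC by 0.17 ± 0.053 (0.0338). GPX2 was at 0.28 ± 0.14 (adjusted p = 0.192) and NQO1 at -0.02 ± 0.063 (0.841; 95% interval -0.15 to 0.11), neither called.

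The 3 conditions were also read singly. Without ligand HMOX1 rose by 1.00 ± 0.14 with silencing (2.00-fold; adjusted p = 0.000697), GCLM by 0.69 ± 0.10 (1.61-fold; 0.000765) and SRXN1 by 0.54 ± 0.087 (1.46-fold; 0.00156), 3 of 9 higher and 0 lower against 2.12% and 1.45% of all genes. For all 3 the untreated siPKCiz arrays lay above every untreated siControl array. The calls came from the same arrays, so this is not separate evidence, and TXNRD1, not called, was separate as well. At 8 h of TGFβ GCLM (0.54 ± 0.10; adjusted p = 0.00537), TXNRD1 (0.42 ± 0.087; 0.00935) and SLC7A11 (0.41 ± 0.12; 0.0486) were higher, 3 with 0 lower against 3.52% and 1.9% of all genes. At 24 h 0 of the 9 genes were called by limma, against 1.51% higher and 1.68% lower of all genes. There 6 of the 9 were higher at an unadjusted p under 0.05, against 7.62% of all genes higher and 7.97% lower: GCLM (0.34 ± 0.10; adjusted p = 0.083), HMOX1 (0.54 ± 0.14; 0.05, not below the threshold), TXNRD1 (0.32 ± 0.087; 0.0529), ABCC2 (0.52 ± 0.18; 0.151), SLC7A11 (0.25 ± 0.12; 0.317) and SRXN1 (0.21 ± 0.087; 0.232). The ABCC2 value rested on the replicates, at 0.93 without replicate 1 and 0.19 without replicate 3, and GCLM was at 0.51 without replicate 1.

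**Figure D3:**
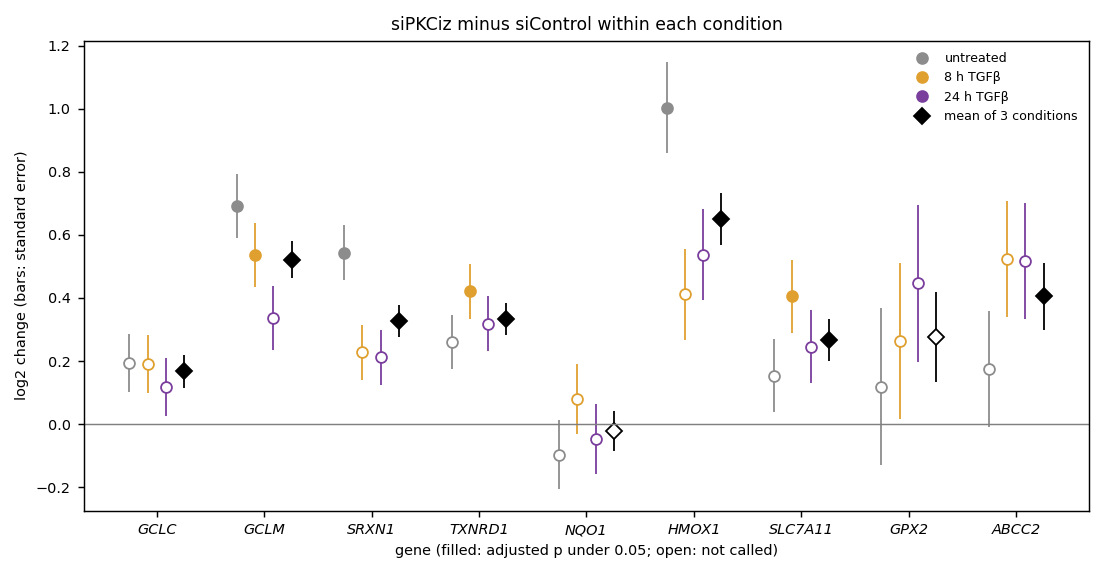
Log2 difference of siPKCiz minus siControl for each gene (vertical axis; bars are limma standard errors) without ligand (grey), at 8 h (orange) and 24 h (purple) of TGFβ and as the mean of the 3 conditions (black diamonds); filled symbols passed adjusted p under 0.05. The means of 7 genes are filled and above 0, and the NQO1 mean lies at -0.02.

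These silencing counts turned on the replicates. PRKCZ was lowered least in replicate 1, and its part in the counts that follow was not tested. Without replicate 1, 5 of the 9 genes were called higher at 24 h (GCLM, TXNRD1, HMOX1, GPX2 and ABCC2), against 5.63% of all genes. There were 5 at 8 h, against 12.2%, and 8 in the mean, against 18.9%. GPX2 then stood at 0.40 in the mean (adjusted p = 0.000499) and ABCC2 at 0.64 (6.61e-06). Without replicate 2 or without replicate 3, 0 of 9 were called in any single condition and 4 in the mean (GCLM, SRXN1, TXNRD1 and HMOX1). In those fits 0.0599% to 0.152% of all genes were called higher in a single condition, and 2.79% and 2.63% in the mean, so the calls in single conditions were lost over all genes. ABCC2 in the mean was then 0.35 and 0.23 (adjusted p = 0.237 and 0.3), SLC7A11 0.30 and 0.20 (0.0798 and 0.172) and GCLC 0.18 and 0.12 (0.163 and 0.346). The HMOX1 mean held its size, at 0.64, 0.66 and 0.65 without replicates 1, 2 and 3. With arrays centred on their medians the GCLC mean was 0.12 (adjusted p = 0.146) and SLC7A11 at 8 h 0.36 (0.11), neither called. The replicate block took both calls (0.0509 and 0.0554), and SLC7A11 at 8 h was not called with only the arrays compared (0.0509) or with all probe sets (0.0502). SLC7A11 at 8 h was not called without any 1 of the 6 arrays compared (adjusted p = 0.0543 to 0.177), TXNRD1 at 8 h was lost without the array of siPKCiz 8 h replicate 2 (adjusted p = 0.0609), and the GCLC mean was lost without the array of siControl 24 h replicate 2 or 3 or siControl 8 h replicate 3 or siControl untreated replicate 3 or siPKCiz 24 h replicate 3 or siPKCiz 8 h replicate 2 or siPKCiz untreated replicate 2 or 3 (adjusted p = 0.0522 to 0.0723). Over all genes the same centring moved the share of higher among called genes from 59.4% to 36.8% without ligand, 64.9% to 49.9% at 8 h and 59% to 38.2% in the mean, and quantile normalization from 59.4% to 46.3% without ligand.

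Whether silencing altered the TGFβ response itself was tested by the interaction of siRNA and TGFβ. Of the 9 genes 0 were called at 8 h, against 0% of all genes, and 0 at 24 h, against 0% (limma; lowest adjusted p over all genes 1 at both times). Over all genes 625 (3.4%) and 705 (3.84%) had an unadjusted p under 0.05, among them 2 of the 9 at 8 h and 3 at 24 h. The response of HMOX1 in siPKCiz minus that in siControl was -0.59 ± 0.20 at 8 h (95% interval -1.02 to -0.16) and -0.47 ± 0.20 at 24 h (-0.90 to -0.04). The interaction for SRXN1 was -0.32 ± 0.12 (-0.58 to -0.06) and -0.33 ± 0.12 (-0.59 to -0.07), and for GCLM -0.36 ± 0.14 at 24 h (-0.66 to -0.05). For GPX2 the 24 h interval ran from -0.41 to 1.07 and for ABCC2 from -0.20 to 0.89, so differences between the arms within these intervals are not excluded. The arms' TGFβ responses and the silencing differences share groups and are not separate evidence.

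The rest of the pathway was read from 7 lists holding 108 genes besides the 9, of which 96 were measured; the other 12 were not analysed here. At 24 h 31 of the 96 fell and 1 rose in siControl (median change -0.16 against -0.01 over all genes), and 34 fell and 2 rose in siPKCiz (median -0.24). Of all genes 6.46% fell and 5.85% rose in siControl and 6.09% and 4.65% in siPKCiz, the shares against which each list at 24 h below is read. At 8 h the falls and rises numbered 19 and 2 in the siControl arm (6.18% and 5.17% of all genes), and 13 and 0 after silencing (3.35% and 3.13%). Without replicates 1, 2 and 3 the falls at 24 h numbered 34, 16 and 15 in siControl and 33, 17 and 15 in siPKCiz. In the same fits 8.99%, 2.07% and 1.8% of all genes fell in siControl and 5.48%, 2.32% and 2.02% in siPKCiz. The rises were the plasma glutathione peroxidase GPX3 at 24 h in both arms and at 8 h in siControl (0.30 ± 0.096; lost without replicate 1, 2 or 3, adjusted p = 0.103 to 0.324). The repressor BACH1 rose at 8 h in siControl (0.36 ± 0.097; adjusted p = 0.0196), and the oxidase NOX4 rose at 24 h in siPKCiz (1.08 ± 0.23; 0.00437; 0.58 ± 0.23 in siControl, 0.118, not called); without replicate 1 the NOX4 value in siPKCiz was 0.71, still called. The BACH1 call was lost without replicate 2 or 3 (adjusted p = 0.32 to 0.331). BACH1 and NOX4 here, and BTRC and SOD2 further on, were named after their values were seen.

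Conjugation, reductase and efflux genes had the most falls: 14 of 19 fell and 0 rose at 24 h in siControl (median -0.43) and 13 fell and 0 rose in siPKCiz (median -0.45), against 6.46% and 6.09% of all genes falling. ALDH3A1, an aldehyde dehydrogenase, fell by 1.76 ± 0.12 in siControl (3.38-fold lower; adjusted p = 7.09e-08) and fell by 1.41 ± 0.12 in siPKCiz (7.25e-07). The fatty acid hydroxylase CYP4F11 (-1.52 ± 0.16 in siControl and -1.91 ± 0.16 in siPKCiz), the efflux pump ABCG2 (-1.25 ± 0.12 and -1.32 ± 0.12) and the ketosteroid reductase AKR1C2 (-1.17 ± 0.10 and -0.79 ± 0.10) fell as well. Without replicates 1, 2 and 3 the siControl count was 14, 9 and 7, against falls in 8.99%, 2.07% and 1.8% of all genes. In the heme and iron list 4 of 8 fell in siControl and 5 in siPKCiz, against the same shares. They included the iron exporter SLC40A1 (-0.65 ± 0.096 and -0.93 ± 0.096), the ferritin light chain FTL (-0.44 ± 0.11 and -0.49 ± 0.11) and both biliverdin reductases, BLVRA (-0.44 ± 0.12 and -0.51 ± 0.12) and BLVRB (-0.33 ± 0.091 and -0.54 ± 0.091), which act just after heme oxygenase. SLC40A1 was called in both arms under every alternative, as were ALDH3A1, CYP4F11, ABCG2 and AKR1C2. The siControl call of FTL was lost without replicate 1, 2 or 3 (adjusted p = 0.0563 to 0.0932), of BLVRA without replicate 2 or 3 (0.118 to 0.326) and of BLVRB without replicate 1 or 3 (0.141 to 0.335). In siPKCiz the FTL and BLVRA calls were lost without replicate 3 (0.0974 and 0.0668).

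Among other genes of glutathione synthesis and use 6 of 23 fell and 1 rose at 24 h in siControl, and 5 fell and 1 rose in siPKCiz, against falls in 6.46% and 6.09% of all genes. The glutathione transferases GSTM4 (-0.88 ± 0.14 and -0.89 ± 0.14) and MGST1 (-0.61 ± 0.13 and -0.51 ± 0.13) fell in both arms. Glutaredoxin, GLRX, fell in siControl (-0.75 ± 0.15) and was at -0.46 ± 0.15 in siPKCiz, not called (adjusted p = 0.0606). GPX3 rose by 0.50 ± 0.096 and 0.32 ± 0.096. Its siPKCiz call was lost without replicate 1, 2 or 3 (values 0.16 to 0.40, adjusted p = 0.0948 to 0.415) and its siControl call without replicate 2 (adjusted p = 0.0543). GLRX in siControl was lost without replicate 3 (0.0826) and MGST1 without replicate 2 in both arms (0.078 and 0.203), while GSTM4 was called in both arms under every alternative. In the thioredoxin, peroxiredoxin and dismutase list 2 of 15 fell in each arm and 0 rose against those shares: catalase, CAT (-0.63 ± 0.13 and -0.51 ± 0.13), and mitochondrial thioredoxin, TXN2 (-0.35 ± 0.077 and -0.37 ± 0.077). The siControl calls of both were lost without replicate 2 or 3 (adjusted p = 0.0719 to 0.11 for CAT and 0.0975 to 0.101 for TXN2), and in siPKCiz CAT was lost without replicate 2 or 3 (0.0667 to 0.193) and TXN2 without replicate 3 (0.109). In the NADPH supply list, against the same shares, 2 of 8 fell in siControl and 3 in siPKCiz, with the pentose phosphate enzymes TKT (-0.42 ± 0.079 and -0.38 ± 0.079) and TALDO1 (-0.35 ± 0.075 and -0.30 ± 0.075) in both. In siControl the TKT call was lost without replicate 2 (0.054) and the TALDO1 call without replicate 3 (0.0874); in siPKCiz TKT was lost without replicate 2 or 3 (0.0693 to 0.133) and TALDO1 without replicate 1, 2 or 3 (0.061 to 0.144). Of 6 NADPH oxidase genes, which make superoxide, NOX1 fell in both arms (-1.36 ± 0.34 and -1.40 ± 0.34); without replicate 1 these were -0.72 and -0.71, both called, and without replicate 3 -1.65 in each arm, neither called (adjusted p = 0.0864 and 0.086). Its call was lost as well without the array of siControl 24 h replicate 1 or siControl untreated replicate 1 (adjusted p = 0.0563 to 0.08) in siControl and without the array of siPKCiz 24 h replicate 1 or siPKCiz untreated replicate 1 (adjusted p = 0.0801 to 0.0807) in siPKCiz.

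**Figure D4:**
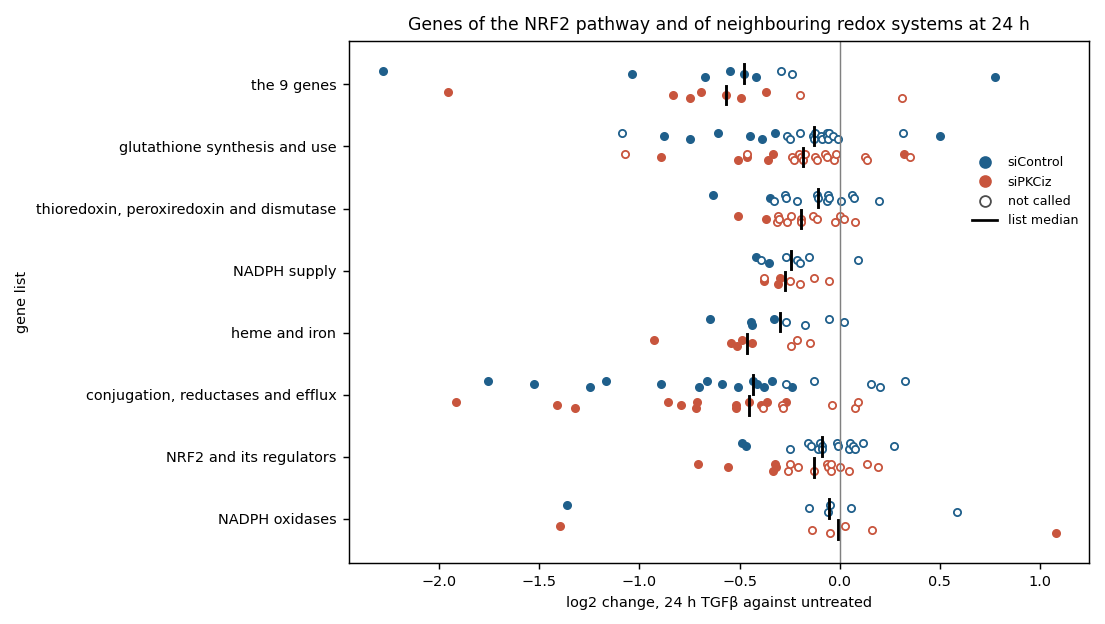
Log2 change at 24 h of TGFβ against untreated cells (horizontal axis) for the 9 genes and for the measured genes of 7 lists (rows), in siControl (blue) and siPKCiz (red); each circle is a gene, filled where adjusted p was under 0.05, and black bars are list medians. The conjugation, reductase and efflux row reaches furthest to the left after the 9 genes, with medians of -0.43 and -0.45.

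Of NRF2 and its regulators 2 of 17 fell and 0 rose at 24 h in siControl, against 6.46% and 5.85% of all genes, and 2 fell and 1 rose at 8 h. The falls at 24 h were TRIM16 (-0.49 ± 0.079), which stabilises NRF2, and its target OSGIN1 (-0.47 ± 0.1). Both also fell in siPKCiz (-0.56 ± 0.079 and -0.71 ± 0.1), where 5 of 17 fell, against 6.09% of all genes. The siControl call of OSGIN1 was lost without replicate 2 (adjusted p = 0.13). NFE2L2, the gene of NRF2, was at -0.16 ± 0.079 in siControl (adjusted p = 0.235) and fell by 0.32 ± 0.079 in siPKCiz (0.0127). KEAP1 was at -0.01 ± 0.086 (0.972) and fell by 0.32 ± 0.086 in siPKCiz (0.0193). Both siPKCiz calls were lost without replicate 2 or 3 (adjusted p = 0.126 to 0.135 for NFE2L2 and 0.156 to 0.2 for KEAP1) and with arrays centred on their medians. NFE2L2 in untreated cells read 11.36, 11.24 and 11.07 in siControl and 11.53, 11.48 and 11.55 in siPKCiz, and KEAP1 9.29, 9.57 and 9.58 against 9.88, 9.90 and 9.85. Untreated siPKCiz arrays of both genes lay above all untreated siControl arrays, a separation whose share over all genes was not counted. At 24 h the KEAP1 arrays overlapped, at 9.55, 9.63 and 9.47 in siPKCiz and 9.44, 9.46 and 9.52 in siControl, and those of NFE2L2 were separate.

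Over the 3 conditions silencing raised 30 of the 96 list genes and lowered 4, against 11.8% and 8.17% of all genes (median 0.10 against -0.01). Without replicates 1, 2 and 3 the rises numbered 39, 13 and 9, against 18.9%, 2.79% and 2.63% of all genes. NFE2L2 rose by 0.20 ± 0.046 (adjusted p = 0.00486) and KEAP1 by 0.23 ± 0.05 (0.0029). The NFE2L2 call was lost without replicate 2 or 3 (0.123 to 0.159) and the KEAP1 call without replicate 2 (0.0957). OSGIN1 (0.38 ± 0.058), CYP4F11 (0.51 ± 0.094), AKR1C2 (0.43 ± 0.059), ALDH3A1 (0.38 ± 0.071) and CAT (0.45 ± 0.078) rose as well; of these CAT was lost without replicate 2 or 3 (0.0703 to 0.0709), and ALDH3A1 was at 0.24 without replicate 3, still called. The 4 lowered genes were BTRC, a substrate receptor of a ubiquitin ligase that acts on NRF2 (-0.59 ± 0.043; adjusted p = 3.71e-08), SOD2 (-0.34 ± 0.09), GLRX (-0.32 ± 0.088; -0.50 without replicate 1, and not called without replicate 2 or 3, adjusted p = 0.218 to 0.354) and BACH1 (-0.17 ± 0.056). SOD2 and BACH1 were both lost without replicate 2 or 3 (adjusted p = 0.145 to 0.182 and 0.381 to 0.404), and BTRC was called under every alternative.

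Markers of cell types moved with TGFβ and with silencing as well. Their counts are read against all genes, of which 6.46% fell and 5.85% rose at 24 h in siControl. In siPKCiz these shares were 6.09% and 4.65%, and with silencing 11.8% of all genes were higher and 8.17% lower in the mean. In siControl 3 of 5 epithelial markers fell at 24 h (KRT19, EPCAM and CDH1; KRT8 and KRT18 were not called, and EPCAM was lost without replicate 2, adjusted p = 0.136), with summed intensity from 12660 to 14210 in untreated arrays and 9854 to 12100 at 24 h. The 4 fibroblast markers summed to 699 to 828 untreated and 894 to 982 at 24 h, where LUM rose by 1.28 ± 0.14 and the other 3 were not called, and the 3 leukocyte markers to 288 to 327 and 231 to 282; the 3 endothelial markers overlapped (226 to 256 and 213 to 235). In siPKCiz 2 of 5 epithelial markers fell, with sums from 13760 to 14490 untreated and 11130 to 12440 at 24 h. Of the 3 leukocyte markers 1 fell at 24 h in each arm, and 0 without replicate 2 or 3. Without replicate 1 the leukocyte marker that fell was CD14 (-0.78 in siControl and -0.72 in siPKCiz). With silencing, 3 of 5 epithelial markers were higher and 0 lower in the mean of the 3 conditions: EPCAM (0.76 ± 0.16; adjusted p = 0.0022), CDH1 (0.49 ± 0.098; 0.00177) and KRT19 (0.25 ± 0.067; 0.0137). Their calls in the mean numbered 3, 0 and 0 without replicates 1, 2 and 3, against 18.9%, 2.79% and 2.63% of all genes higher. EPCAM was at 1.13 without replicate 1 and 0.48 without replicate 3. At 8 h of TGFβ the epithelial sum was 13670 to 15270 in siPKCiz and 12050 to 12370 in siControl, without overlap, while the sums overlapped without ligand and at 24 h. Of the fibroblast markers LUM was higher (0.55 ± 0.079; adjusted p = 7.91e-05) and THY1 lower (-0.65 ± 0.084; 2.95e-05) with silencing, and 0 of the 3 leukocyte and 0 of the 3 endothelial markers were called. The part of these markers in the changes of the 9 genes was not tested.

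Across the 18 arrays the 28 pairs without HMOX1 had Pearson r from 0.484 to 0.93 (median 0.73), while HMOX1 had r from -0.353 to 0.449 with the other 8. The arrays share their 6 groups, so these values hold the group differences. Within groups, on deviations from the group means, the 28 pairs ran from -0.334 to 0.818 (median 0.233), GCLC and TXNRD1 highest, and HMOX1 from -0.245 to 0.738, highest with SRXN1. Among 1408 genes with mean log2 intensity of at least 7 and SD of at least 0.3, the patterns nearest to GPX2 over 18 arrays were those of CNTN1 (r = 0.98), ALDH3A1 (0.962) and MALL (0.953). Those nearest to HMOX1 were USP31 (0.95), REPS2 (0.924) and LBH (0.91), and those nearest to GCLM were MMP24 (0.951), RBP4 (0.945) and BCAS1 (0.94).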

How the data were processed

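RNA from A549 cells was measured on 18 Affymetrix whole-transcript arrays, 200 ng of total RNA each, in 6 groups of 3 biological replicates; that replicates are biological is per the labels. The authors deposited 1 intensity per probe set on a linear scale, made with RMA (background correction, normalization and probe summary) in Partek, per the submitters' processing notes; versions and annotation are not given in the sources used here. Array medians lay between 156.1 and 160.7. The number of arrays limits the precision; the median standard error of a change was 0.1 log2 units.

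From these values log2 was taken once. Of 28869 probe sets 19310 had 1 gene symbol, 1752 several and 7807 none; the brightest per symbol gave 18377 genes. Group means were fitted with limma 3.58.1 (R 4.3.3; eBayes without trend, 12 residual degrees of freedom), with Benjamini-Hochberg adjustment within each of 12 comparisons and a threshold of 0.05, after a check on simulated data. That simulation drew noise independently for each array, so it could not show the limit on p-values described below. The 9 genes and all lists were chosen with earlier results of these data known. Besides the 9, the pathway genes named were, per list, up to 4 with the largest change called at 24 h in siControl, and NFE2L2 and KEAP1. Replicate numbers were not used as pairs, since the labels state no pairing. Deviations of same-numbered arrays correlated from -0.514 to 0.258 (median -0.0576 over 45 pairs). These correlations cannot show whether the arrays were paired. For the 9 genes the deviations of replicate 1 averaged only -1.65e-05 to 1.7e-05 over the 6 groups, which pulls such correlations down. In the other replicates these averages reached 0.103 in size (HMOX1). Whether a difference between replicate 1 and the other replicates was removed before deposit was not tested. The processing steps given above name no such removal. The 12 residual degrees of freedom make no allowance for it. With such a removal the p-values would be too small, and fits without a replicate number share this limit. Alternatives were a replicate block, other scalings, filters and moderation, array weights, smaller fits, all probe sets, and leaving out replicates or arrays. A planned check of the ligand is not reported here. Promoter sequences were RefSeq's (GRCh38.p14).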

Additional observations from a re-analysis of the deposited data

How the results depend on the processing

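None of the 39 called values of the 9 genes changed sign under any alternative, 14 stayed called under all of them, and 2 moved by over 1.5 times (NQO1 at 24 h in siControl and ABCC2 in the mean of silencing). The replicate block (replicate number as a factor) took the calls of 6 of the 39 and gave fewer calls over all genes between 24 h and 8 h (262 in siControl, 77 in siPKCiz, where 1 of the 9 genes was called) and for silencing at 8 h (616) and 24 h (380). Of the 18 arrays 0 correlated best with an array of its own number, and 7 of 45 same-numbered pairs had r over 0.1. These counts cannot show whether the numbers paired the arrays, since replicate 1 had almost no mean deviation from the group means in the 9 genes. Array weights raised the counts over all genes to 3485 and 3483 for TGFβ at 8 h and 24 h in siControl, 1871 at 8 h in siPKCiz (5 of the 9 genes), 388 between times in siPKCiz, 2956, 2929 and 1228 for silencing untreated, at 8 h (6 of the 9) and at 24 h (4 of the 9), 5987 for the mean of silencing, and 1 for the interaction at 24 h. With only the arrays compared, 211 genes and 1 of the 9 were called between times in siControl, 27 and 1 in siPKCiz, 229 genes for silencing at 24 h and 2 for the interaction at 8 h. Silencing at 24 h, with 0 of the 9 called, had 2 with the filter on dim probe sets, 2 with quantile normalization, 1 with median centring and 2 with trend and robust moderation. Over all genes 710 were called there with quantile normalization and 610 with median centring, against 587 in full. The counts over all genes with the filter and with trend and robust moderation are not given here. The cause of these differences was not tested; leaving out arrays also leaves fewer samples. Fits without a replicate number also carry the limit on p-values given with the processing.

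Leaving out 1 replicate number or 1 array gave, of the 9 genes and over all genes, 1 to 5 and 681 to 2917 called at 8 h and 3 to 8 and 755 to 2872 at 24 h in siControl, against 2087 and 2262 genes in full. In siPKCiz the ranges were 1 to 3 and 323 to 1123 at 8 h and 5 to 7 and 780 to 1737 at 24 h. Between times they were 0 to 2 and 11 to 670 in siControl and 0 to 3 and 1 to 299 in siPKCiz. Silencing gave 0 to 3 and 27 to 1513 untreated, 0 to 5 and 24 to 3486 at 8 h, 0 to 5 and 18 to 2078 at 24 h, and 4 to 8 and 837 to 5774 in the mean; the interactions gave 0 of the 9 and 0 to 58 genes at 8 h and 0 to 80 at 24 h. Other scalings moved the median of all genes by at most 0.0623.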
